A study of Mus musculus with 19 samples.

Results

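Rpa3 and 9 other genes of the DNA replication machinery (Rpa1, Rpa2, Mcm2 to Mcm7 and Pcna) were followed in mouse 3T3-L1 adipocytes given a single fatty acid. The genes were found by their symbol in the array's annotation: 10 of 18820 gene symbols, read by 12 probe sets, of which the brightest of each gene over all 19 arrays was used. Rpa3 was chosen by its measured log2 difference between palmitoleic acid and control cells in an earlier reading of these same arrays, so its differences from control, and those that involve palmitoleic acid, are given below as values with no test. The other 9 genes were chosen for their shared part in replication.

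3T3-L1 is a mouse embryo fibroblast line that turns into fat cells when it is stimulated after growing to confluence. Here the cells had been differentiated with dexamethasone, IBMX and insulin, kept on insulin, and held without serum from day 7, and this was the same in all groups. From day 8 they received, for 48 h, 250 µM palmitic acid (PA, 16:0, 4 arrays), palmitoleic acid (PMA, 16:1n7, 4 arrays), stearic acid (SA, 18:0, 4 arrays) or oleic acid (OA, 18:1n9, 3 arrays), each in 2% BSA with ethanol as solvent, and 4 control cultures received the BSA and ethanol alone. The arrays are labelled as biological replicates of 1 cell line, so p-values measure the spread between cultures, not between animals.

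Replication protein A (RPA) is a trimer of Rpa1, Rpa2 and Rpa3 that coats single-stranded DNA during replication and repair. The 6 MCM proteins form the ring-shaped core of the helicase that is loaded on origins in G1 and unwinds DNA in S phase, and Pcna is the sliding clamp that holds DNA polymerases on the template. MCM and PCNA genes are classical targets of E2F transcription factors and are high in cycling cells, whereas mature adipocytes have left the cell cycle after a short round of divisions early in differentiation.

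All values are log2 RMA values (probe signals corrected for background, quantile normalized and summarised per probe set), in which 1 unit is a doubling, and levels are compared only within a probe set. The 19 arrays correlated with each other at 0.988 to 0.997 over all probe sets. PA replicates 2 and 4 stood apart on the first principal component, at -27.4 and -13.8 against -8.3 to 10.3 for the other 17 arrays, and many of the differences from PA below are given without them as well. The 8 adipocyte markers averaged 11.9 to 12.0 in every group. Of the 5 macrophage markers, Ptprc, Adgre1, Itgam and Csf1r were below the array median on all 19 arrays, as were all 4 endothelial markers. Cd68, a lysosomal glycoprotein, was above it on every array. Cd68 was lower by 0.58 with SA than with PMA (limma adjusted p = 0.00808), where 0.244% of all genes were called. It differed from control by 0.32 with PMA and by -0.25 with SA (adjusted p = 0.128 and 0.406), neither called. How far the Cd68 call depends on single arrays was not tested.

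Promoters of 4 of the genes are shown because the values below turn on Rpa3, and because Mcm3, Mcm5 and Mcm6 varied together. Each is the 300 bases from 250 before to 50 after a transcript start of the gene in RefSeq's annotation of GRCm38.p6 (for Mcm5, a start downstream of the gene's outermost one), written 5′ to 3′ on the gene's strand. For Rpa3 (chr6:8259092-8259391, minus strand) capitals mark the ETS core CCGGAAG on either strand; for Mcm3 (chr1:20820263-20820562, minus), Mcm5 (chr8:75109259-75109558, plus) and Mcm6 (chr1:128359656-128359955, minus) they mark the E2F forms TTTCCCGC, TTTCGCGC, TTTGCCGC or TTTGGCGC on either strand.
Rpa3: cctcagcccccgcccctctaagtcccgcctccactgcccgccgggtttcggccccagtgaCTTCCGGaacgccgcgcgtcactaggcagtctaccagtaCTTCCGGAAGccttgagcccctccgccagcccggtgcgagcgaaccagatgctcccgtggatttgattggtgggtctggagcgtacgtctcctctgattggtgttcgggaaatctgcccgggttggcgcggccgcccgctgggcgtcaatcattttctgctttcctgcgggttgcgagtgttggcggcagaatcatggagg
Mcm3: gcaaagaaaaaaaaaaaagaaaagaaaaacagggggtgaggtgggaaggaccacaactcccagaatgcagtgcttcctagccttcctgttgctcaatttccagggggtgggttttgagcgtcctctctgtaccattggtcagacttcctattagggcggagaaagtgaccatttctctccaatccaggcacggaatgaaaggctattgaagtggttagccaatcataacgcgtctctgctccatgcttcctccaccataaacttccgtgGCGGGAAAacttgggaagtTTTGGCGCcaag
Mcm5: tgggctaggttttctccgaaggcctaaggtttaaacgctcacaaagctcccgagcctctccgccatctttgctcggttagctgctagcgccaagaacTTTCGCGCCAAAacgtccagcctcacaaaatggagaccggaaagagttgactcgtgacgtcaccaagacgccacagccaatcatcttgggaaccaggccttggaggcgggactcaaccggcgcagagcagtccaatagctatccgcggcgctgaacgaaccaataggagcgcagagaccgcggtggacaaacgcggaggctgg
Mcm6: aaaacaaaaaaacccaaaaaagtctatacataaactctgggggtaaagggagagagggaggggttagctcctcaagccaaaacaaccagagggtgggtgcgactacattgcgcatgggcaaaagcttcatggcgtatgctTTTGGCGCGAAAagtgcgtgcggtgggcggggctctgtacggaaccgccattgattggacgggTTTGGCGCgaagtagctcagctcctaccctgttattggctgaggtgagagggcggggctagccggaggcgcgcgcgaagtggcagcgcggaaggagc

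An E2F form was present in 2.26% of the 32851 promoter windows of the table. Windows were at hand for 9 of the 10 genes, all but Mcm4, and those of Mcm3, Mcm5, Mcm6 and Mcm7 held at least one; the matches in Mcm5, and 2 of the 3 in Mcm6, overlap each other. The ETS core was present in 8.86% of windows. It occurred 3 times in Rpa3, where 2 matches overlap, and once in Rpa2. The CCAAT box, on either strand, was in all 9 genes and in 37.4% of all windows. A match is a string of letters and was not tied to any binding in these data. The Rpa3 window shares 246 bases with that of Umad1, which runs from chr6:8259288-8428767 on the opposite strand, 146 bases from Rpa3 (chr6:8255936-8259141). Umad1 is read only by a probe set that it shares with another gene, so no value is given for it. The other neighbour, Mios (chr6:8209111-8240573), which encodes a subunit of the GATOR2 complex that signals amino acids to mTORC1, differed from control by -0.14 with PA, 0.09 with PMA, 0.06 with SA and 0.05 with OA, and limma called none of these (adjusted p = 0.453, 0.64, 0.938 and 0.929).

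Rpa3, the smallest RPA subunit, was lower with every fatty acid than in control cells. Its probe set 10543114 read 8.48, 8.30, 8.54 and 8.24 with PA. It read 7.99, 8.20, 8.16 and 8.33 with PMA. The values were 8.37, 8.46, 8.35 and 8.19 with SA, and 8.40, 8.37 and 8.18 with OA. Control cultures gave 8.70, 8.56, 8.76 and 8.87. Every one of the 15 fatty acid arrays was therefore below every control array, which was so for 29 of 18820 genes, or 0.154%. Taken acid by acid, all arrays lay below all controls for 1.65% of genes with PA, 1.30% with PMA, 2.50% with SA and 4.63% with OA. Because Rpa3 was chosen for this pattern, these shares only describe how often it occurs. In RNA from whole cultures, fewer cells of a type and less RNA per cell cannot be told apart.

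The Rpa3 group means were 8.39 ± 0.14 with PA, 8.17 ± 0.14 with PMA, 8.34 ± 0.11 with SA (SD, n = 4 each), 8.32 ± 0.12 with OA (SD, n = 3) and 8.72 ± 0.13 in control cells (SD, n = 4). The difference from control was -0.33 ± 0.08 with PA, -0.55 ± 0.08 with PMA, -0.38 ± 0.08 with SA and -0.40 ± 0.09 with OA (SE), or 0.794, 0.683, 0.77 and 0.757 of the control level. The 4 differences share the same control arrays. The PA difference was -0.21 without PA replicates 2 and 4. A difference below -0.3 with each of the 4 acids was found for 6 genes, 0.0319% of all, Rpa3 among them. As Rpa3 was chosen on such a difference, this share too only describes how often the pattern occurs. The PA difference did not reach -0.3 without PA replicates 2 and 4, nor with both Rpa3 probe sets averaged (-0.16). PMA gave the lowest mean, and its arrays overlapped those of each of the other acids: the PMA difference was -0.22 ± 0.08 from PA, or -0.34 without PA replicates 2 and 4, while OA and SA lay 0.15 and 0.17 above PMA.

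**Figure D1:**
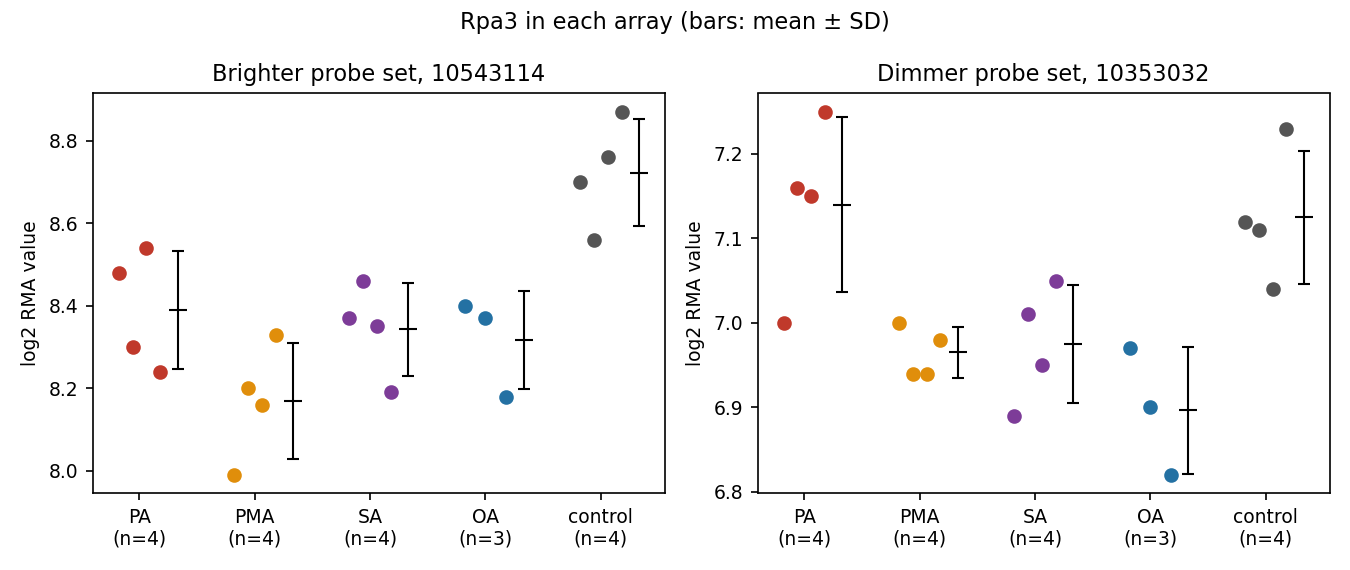
Log2 RMA values of Rpa3 in each array by group (points), with mean ± SD (bars), for the brighter probe set on the left and the dimmer one on the right; the vertical axes differ and do not start at 0. On the left all 15 fatty acid arrays, 7.99 to 8.54, sit below the control arrays, 8.56 to 8.87. On the right PA, 7.00 to 7.25, overlaps control, 7.04 to 7.23.

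The contrasts of PA, SA and OA with each other involve neither control nor PMA, and Rpa3 was tested in them. Palmitic and stearic acid are saturated and differ in chain length; stearic and oleic acid have the same length and differ by the double bond of oleic acid; oleic and palmitic acid differ in both. SA minus PA was -0.04 (95% interval -0.22 to 0.13, limma adjusted p = 0.812). OA minus SA was -0.02 (-0.21 to 0.17, adjusted p = 1). OA minus PA was -0.07 (-0.26 to 0.12, adjusted p = 0.674). None was called, and the widest of the intervals still holds a value of -0.26. Without PA replicates 2 and 4, SA minus PA was -0.17 (-0.36 to 0.03, adjusted p = 0.995) and OA minus PA -0.19 (-0.40 to 0.02, adjusted p = 0.642), also not called.

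The dimmer Rpa3 probe set, 10353032, did not follow the brighter one in every group. Its probe sequences were not at hand, so its target within Rpa3, or in a related copy, is not known. This probe set read 7.00, 7.16, 7.15 and 7.25 with PA. It read 7.00, 6.94, 6.94 and 6.98 with PMA, and 6.89, 7.01, 6.95 and 7.05 with SA. The OA values were 6.97, 6.90 and 6.82, against 7.12, 7.11, 7.04 and 7.23 in control cultures. PMA and OA lay below control on every array, SA reached into the control range by 1 array, and PA was level with control. The differences from control were 0.02 with PA, -0.16 with PMA, -0.15 with SA and -0.23 with OA (SE 0.06 each). Over 35556 probe sets tested singly, OA minus PA was -0.25 ± 0.06 (95% interval -0.38 to -0.12, limma adjusted p = 0.0716), SA minus PA -0.16 (adjusted p = 0.286) and OA minus SA -0.08 (adjusted p = 1). These were not called; 0.692%, 0.0337% and 0.00844% of probe sets were. The 2 Rpa3 probe sets correlated at 0.45 over 19 arrays and at -0.08 once group means were taken out. With both averaged, the Rpa3 difference from control was -0.16 with PA and -0.35 with PMA.

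The 2 other RPA subunits stayed near the control level. Rpa1, the large subunit that makes most of the contact with DNA, had 7.74, 7.60, 7.71 and 7.80 with PA and 7.74, 7.61, 7.64 and 7.66 with PMA. It had 7.72, 7.66, 7.65 and 7.66 with SA and 7.72, 7.67 and 7.66 with OA, against 7.67, 7.75, 7.60 and 7.57 in control cultures. All groups overlapped, and the differences from control were 0.06, 0.01, 0.02 and 0.04 with PA, PMA, SA and OA. Rpa2, the subunit that checkpoint kinases phosphorylate, ranged over 6.70 to 6.81 with PA, 6.62 to 6.83 with PMA, 6.66 to 6.73 with SA and 6.58 to 6.84 with OA, against 6.69 to 6.87 in control cultures. Its differences from control were between -0.06 and 0.00. The 95% intervals reached from -0.10 to 0.17 for Rpa1 and from -0.19 to 0.13 for Rpa2. The -0.33 to -0.55 of the brighter Rpa3 probe set lay outside them, but Rpa3 was chosen for such a difference. The dimmer Rpa3 probe set was at 0.02 with PA, -0.16 with PMA, -0.15 with SA and -0.23 with OA. All but the OA value lay within the range reached for Rpa2, and only the PA value within that for Rpa1. Over the 19 arrays Rpa3 correlated with Rpa1 at -0.28 and with Rpa2 at 0.14, while Rpa1 and Rpa2 correlated at 0.52; all values share the arrays and their normalization. The span from lowest to highest array was 0.88 for Rpa3, 0.23 for Rpa1 and 0.29 for Rpa2.

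**Figure D2:**
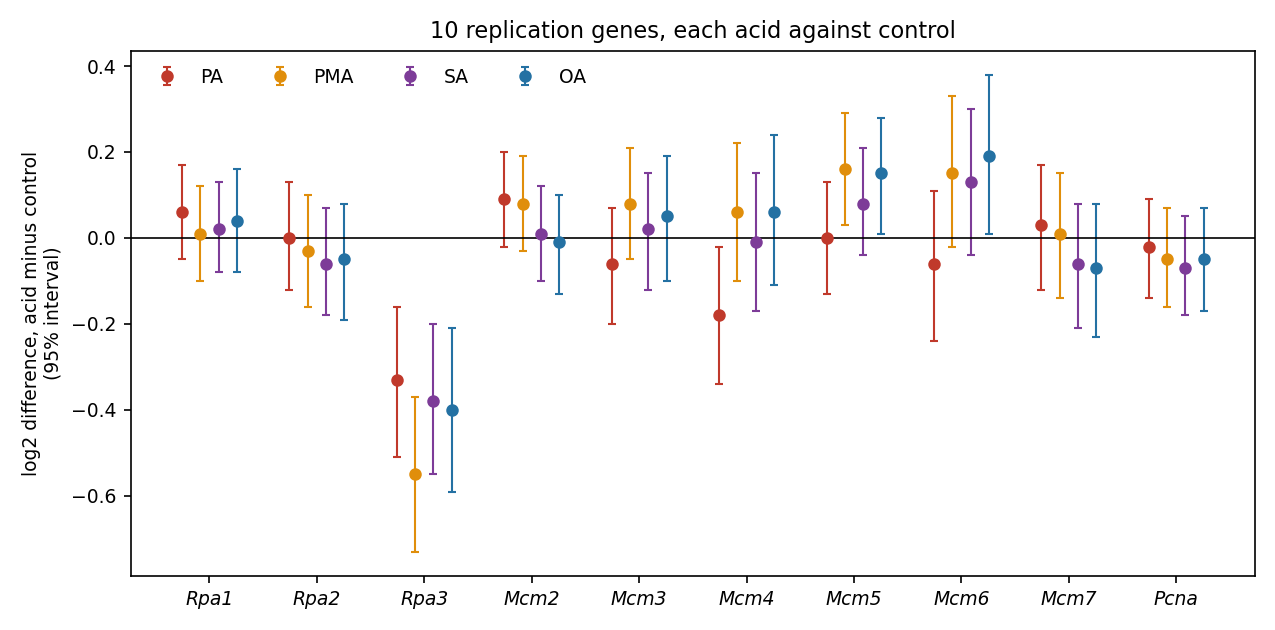
Log2 difference from control of each of the 10 replication genes with each acid (points, limma estimate) and its 95% interval (bars), with acids in the order PA, PMA, SA, OA within each gene. Rpa3 lies at -0.33 to -0.55; the other 9 genes lie between -0.18 and 0.19.

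None of the 9 other genes was called at an adjusted p under 0.05 in any contrast of an acid with control. The share of all genes called was 0% for PA, 0.266% for PMA, 0.165% for SA and 0.861% for OA against control. At an unadjusted p under 0.05, 1 of 9 passed with PA, 1 with PMA, 0 with SA and 2 with OA, where 15.4%, 16.0%, 8.53% and 11.6% of all genes did. Their median difference from control was 0.00, 0.06, 0.01 and 0.04 with PA, PMA, SA and OA, beside 0.03, 0.06, 0.02 and 0.02 over all genes.

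Pcna, the clamp, overlapped between all groups: it ranged over 9.70 to 9.77 with PA, 9.69 to 9.74 with PMA, 9.61 to 9.76 with SA and 9.59 to 9.84 with OA, against 9.69 to 9.81 in control cultures. Its differences from control were between -0.07 and -0.02. A second Pcna probe set never differed from the first by more than 0.02, and RefSeq lists the pseudogenes Pcna-ps1 and Pcna-ps2, so reads of closely similar copies cannot be told from those of Pcna itself.

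Mcm2 and Mcm7, subunits of the helicase ring, showed small differences. Mcm2 had 8.25, 8.23, 8.19 and 8.24 with PMA, against 8.06, 8.15, 8.17 and 8.19 in control cultures. The highest control equalled the lowest PMA array to 2 decimals, and the groups were just apart, as for 9.29% of all genes. The difference was 0.08 (limma adjusted p = 0.443). Mcm2 was also lower on every OA array (8.17, 8.03 and 8.18) than on every PMA array, as were 6.98% of genes, by -0.10 (adjusted p = 0.644). Mcm7 ranged over 7.49 to 7.64 with PA, 7.34 to 7.66 with PMA, 7.41 to 7.64 with SA and 7.40 to 7.55 with OA, against 7.46 to 7.66 in control cultures, and all groups overlapped.

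Mcm4, whose protein forms the catalytic core of the helicase with Mcm6 and Mcm7, had 7.56, 7.26, 7.43 and 7.21 with PA. It had 7.68, 7.56, 7.51 and 7.66 with PMA, and 7.73, 7.55, 7.47 and 7.37 with SA. The OA values were 7.58, 7.68 and 7.57, against 7.45, 7.59, 7.61 and 7.52 in control cultures. The low values were PA replicates 2 and 4. Mcm4 differed from control by -0.18 with PA (limma adjusted p = 0.286), and by -0.05 without those 2 arrays.

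Mcm6 had 6.01, 5.70, 6.10 and 5.66 with PA, again with replicates 2 and 4 lowest. It had 6.16, 6.07, 6.00 and 6.11 with PMA, and 6.23, 6.02, 6.00 and 6.00 with SA. OA gave 6.14, 6.05 and 6.18, against 5.81, 6.04, 6.00 and 5.88 in control cultures. Every OA array was above every control array, as for 9.72% of genes, and the difference was 0.19 (adjusted p = 0.406).

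Mcm5, which closes the gate of the ring with Mcm2, had 6.83, 6.67, 6.71 and 6.68 with PMA. It had 6.73, 6.67 and 6.72 with OA, against 6.59, 6.57, 6.58 and 6.49 in control cultures. Both monounsaturated acids were above control on every array, as 9.29% of genes were with PMA and 9.72% with OA. The differences were 0.16 with PMA (limma adjusted p = 0.209) and 0.15 with OA (adjusted p = 0.378). Mcm5 with SA, 6.49 to 6.81, and with PA, 6.46 to 6.67, overlapped control. Mcm3 ranged over 5.82 to 6.07 with PA, 6.03 to 6.15 with PMA, 5.94 to 6.18 with SA and 5.99 to 6.18 with OA, against 5.97 to 6.04 in control cultures.

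**Figure D3:**
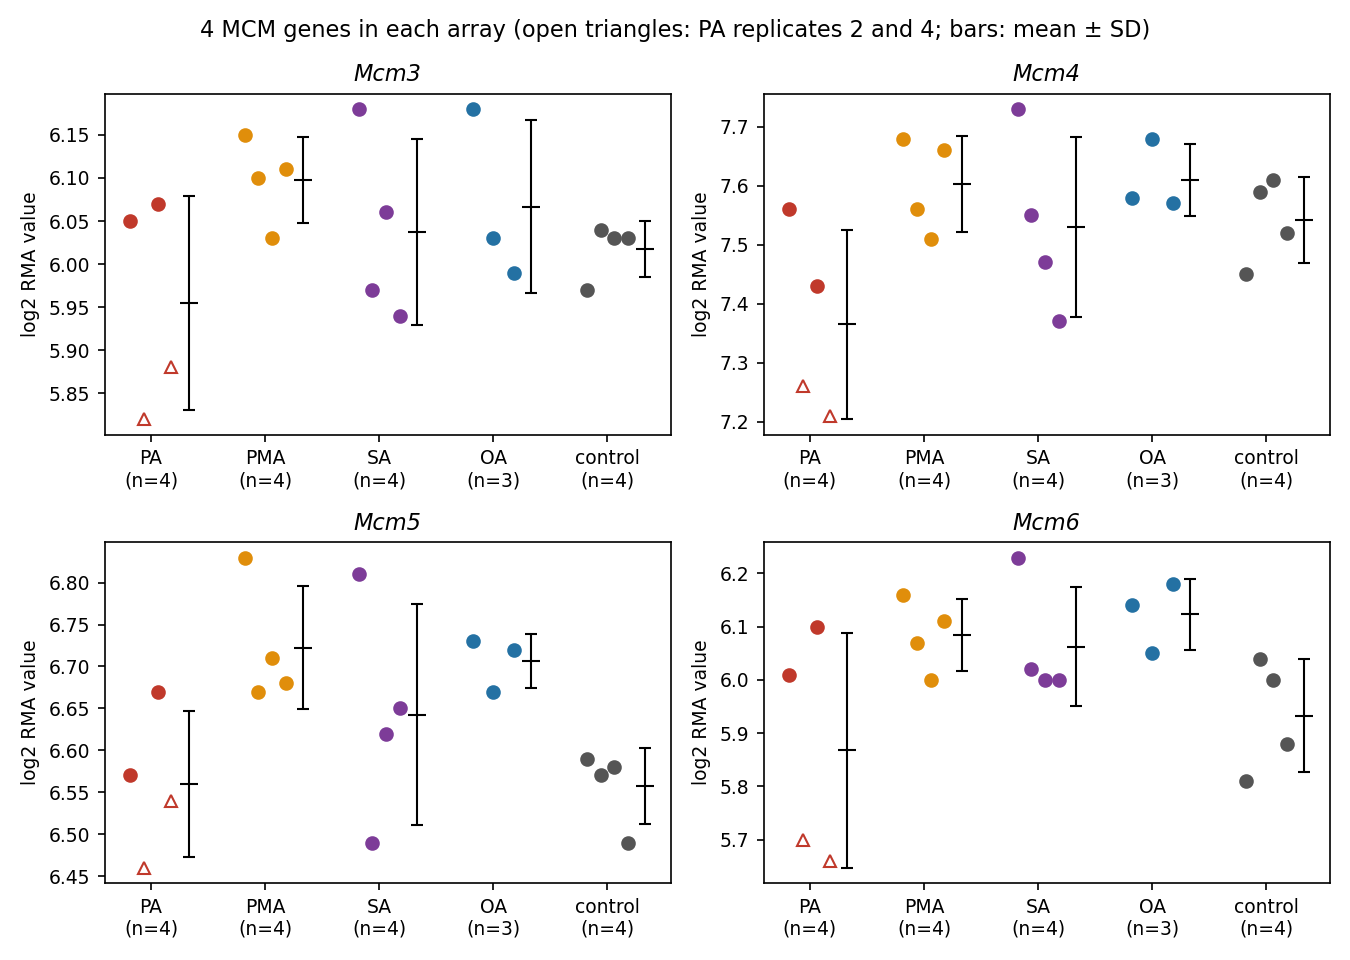
Log2 RMA values of Mcm3, Mcm4, Mcm5 and Mcm6 in each array by group (points) with mean ± SD (bars); open triangles are PA replicates 2 and 4, and the vertical axes differ and do not start at 0. In Mcm4 and Mcm6 the triangles, at 7.26 and 7.21 and at 5.70 and 5.66, are the lowest of all 19 arrays.

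Between acids of matched dose and time, 6 pairs were compared, with p-values adjusted over all 18820 genes of each, and no replication gene was called in any. The share of all genes called was 0.962% for PMA against PA, 0.0319% for OA against SA, 0.143% for SA against PA, 0.0531% for OA against PMA, 1.92% for OA against PA and 0.244% for SA against PMA. At an unadjusted p under 0.05 the count was 4 of 9 for PMA against PA, 3 of 10 for OA against PA and 2 of 10 for SA against PA, where 17.7%, 21.4% and 15.8% of all genes passed. It was 0 in the other 3 pairs, where 2.40%, 8.61% and 8.82% passed.

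The 16-carbon pair differs by 1 double bond. PMA minus PA was 0.24 ± 0.08 for Mcm4 (limma adjusted p = 0.123), 0.22 for Mcm6 (adjusted p = 0.183), 0.16 for Mcm5 (adjusted p = 0.17) and 0.14 for Mcm3 (adjusted p = 0.259). Without PA replicates 2 and 4 these differences were 0.11, 0.03, 0.11 and 0.04. The 18-carbon pair differs by 1 double bond too. OA minus SA was between -0.03 and 0.08 for the 9 genes other than Rpa3, and the widest 95% interval reached 0.18 to either side of its estimate.

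OA minus PA was 0.24 ± 0.08 for Mcm4 (limma adjusted p = 0.114) and 0.26 ± 0.09 for Mcm6 (adjusted p = 0.122). Every OA array was above every PA array for Mcm4, as for 7.84% of genes. Without PA replicates 2 and 4 the differences were 0.12 and 0.07. Leaving out PA replicate 1 or PA replicate 3 alone gave larger differences. Without PA replicate 1, Mcm4 was called in PMA against PA (0.30, adjusted p = 0.0405) and in OA against PA (0.31, adjusted p = 0.0284), and Mcm6 in OA against PA (0.30, adjusted p = 0.0488). The share of all genes called also grew under that setting, to 2.38% for PMA against PA and 8.19% for OA against PA. Without PA replicate 3, Mcm6 was called in PMA against PA (0.29, adjusted p = 0.0497) and in OA against PA (0.33, adjusted p = 0.0405), where 3.39% of all genes were called in each. With the 2 saturated and the 2 monounsaturated acids each averaged, monounsaturated minus saturated was 0.16 for Mcm4, 0.14 for Mcm6 and 0.11 for Mcm5 (adjusted p = 0.264, 0.36 and 0.312); 0 of 9 genes were called, against 0.553% of all genes, and 3 of 9 passed at an unadjusted p under 0.05, against 12.6%. The differences were 0.09, 0.05 and 0.08 without PA replicates 2 and 4.

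Mcm3, Mcm4, Mcm5 and Mcm6 varied together from array to array. Their 6 pairwise correlations over 19 arrays were 0.58 to 0.82, and 0.43 to 0.79 on deviations from group means. The other 39 pairs of the 10 genes had correlations of -0.54 to 0.52, and -0.36 to 0.58 on deviations. Without PA replicates 2 and 4 the 6 pairs were at 0.42 to 0.75 and the other 39 at -0.72 to 0.57. On deviations without those arrays the ranges were 0.31 to 0.65 for the 6 pairs and -0.51 to 0.67 for the others. The ranges of the 6 pairs and of the others overlapped in each of these settings except log2 values over all 19 arrays. The group of 4 was picked out after these correlations were seen, and all values share the arrays, their RNA and their normalization. The mean of the 4 genes per array was 6.44 ± 0.14 with PA, 6.63 ± 0.06 with PMA, 6.57 ± 0.11 with SA (SD, n = 4 each) and 6.63 ± 0.03 with OA (SD, n = 3), against 6.51 ± 0.05 in control cells (SD, n = 4).

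**Figure D4:**
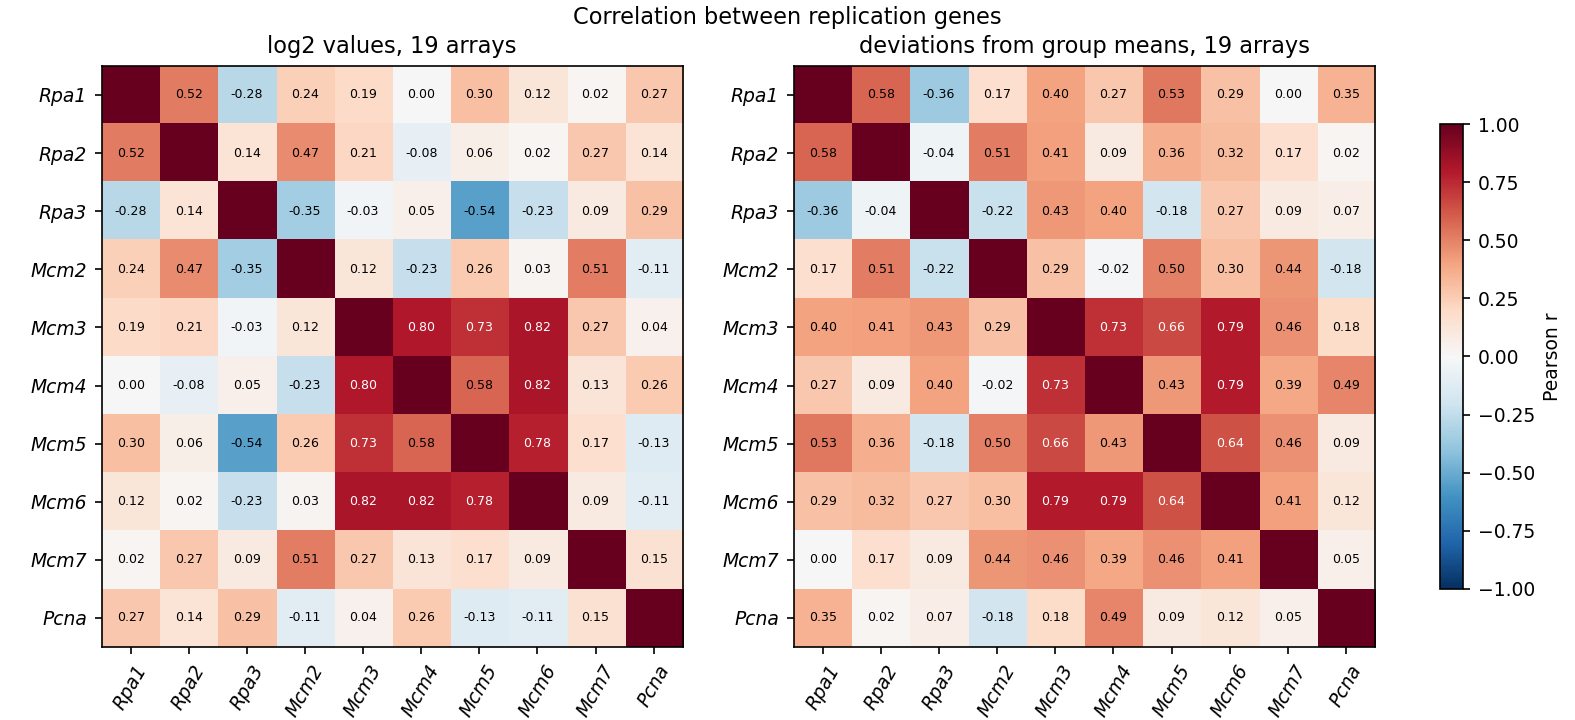
Pearson correlation between each pair of the 10 replication genes over 19 arrays, on log2 values (left) and on deviations from group means (right); red is positive and blue negative. Mcm3, Mcm4, Mcm5 and Mcm6 form a block at 0.58 to 0.82 on the left, and Rpa3 runs from -0.54 with Mcm5 to 0.29 with Pcna.

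The mean of these 4 MCM genes followed that of 7 markers of proliferating cells. The correlation was 0.82 over 19 arrays and 0.75 on deviations from group means. Over 17 arrays without PA replicates 2 and 4 it was 0.74, and 0.63 on deviations. Singly, Mcm3 correlated with the marker mean at 0.79, Mcm5 at 0.78, Mcm6 at 0.75 and Mcm4 at 0.68, whereas Rpa1 was at 0.31, Rpa2 at 0.04, Mcm2 at -0.12, Mcm7 at 0.00, Pcna at -0.05 and Rpa3 at -0.23. On deviations from group means the order was less clear: Mcm3 was at 0.82, Mcm5 at 0.65, Mcm4 and Mcm6 at 0.60 each and Rpa1 at 0.54, with Rpa2 at 0.35, Rpa3 and Mcm7 at 0.31 each, Pcna at 0.19 and Mcm2 at 0.08. Of the 7 proliferation markers, Mki67, Top2a, Ccna2, Cdk1 and Aurkb were above the array median on all 19 arrays. Bub1 was below it on 1 array and Birc5 on 14. The marker mean was 6.52 to 6.75 with PA, 6.78 to 6.81 with PMA, 6.63 to 6.93 with SA and 6.82 to 7.00 with OA, against 6.60 to 6.76 in control cultures. For preadipocyte and fibroblast markers, 7 of 8 measured, the mean was 9.45 to 9.64 with PA and 9.61 to 9.71 with PMA. It was 9.53 to 9.59 with SA and 9.55 to 9.64 with OA, against 9.47 to 9.53 in control cultures. Of the 7, Dlk1, Pdgfra, Pdgfrb, Thy1, Col1a1 and Col3a1 were above the array median on all 19 arrays, and Cd34 was below it. Col1a1, a collagen chain, was the 1 called with PMA against control (0.26, limma adjusted p = 0.0463), beside 0.266% of all genes. Col1a1 was also above control by 0.16 with PA, 0.12 with SA and 0.19 with OA (adjusted p = 0.23, 0.51 and 0.156). How far its call depends on single arrays was not tested. The part of dividing or undifferentiated cells in the MCM values, or in those of Rpa3, was not tested.

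**Figure D5:**
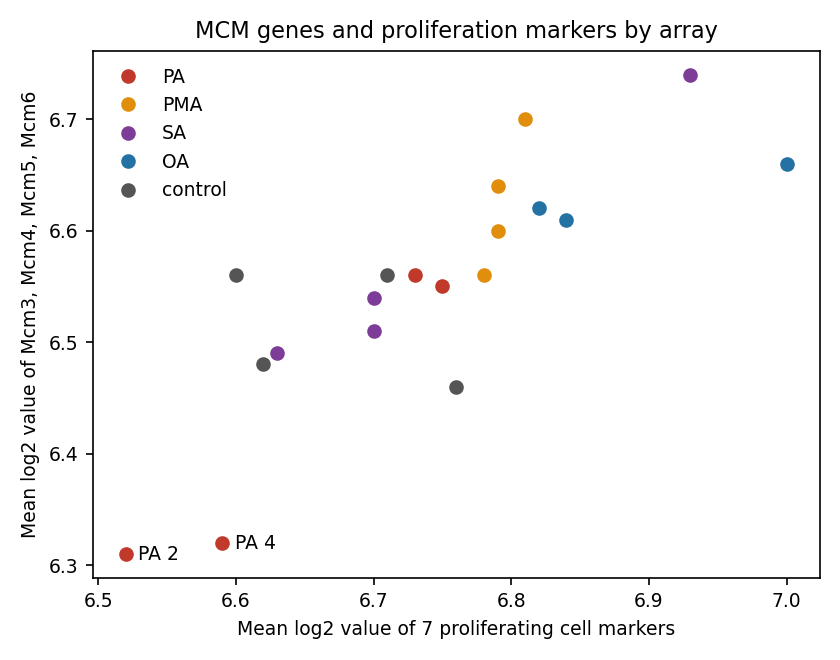
Mean log2 value of Mcm3, Mcm4, Mcm5 and Mcm6 (vertical) against the mean of 7 proliferating cell markers (horizontal), 1 point per array, coloured by group; neither axis starts at 0. The points rise together (r = 0.82 over 19 arrays), with PA replicates 2 and 4 at the lower left and SA replicate 1 and the OA arrays at the upper right. PMA arrays run from 6.56 to 6.7 on the vertical axis, where control replicates 2 and 3 also reach 6.56.

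Of these markers, Mki67, the Ki-67 antigen of cycling cells, and Top2a, the topoisomerase that untangles replicated chromosomes, rose with OA relative to PA, 2 of the 7 measured markers, where 1.92% of all genes were called. Mki67 had 6.55 on each of 3 OA arrays, against 6.33, 6.10, 6.31 and 6.05 with PA, a difference of 0.36 ± 0.09 (limma adjusted p = 0.0454). Top2a had 7.03, 6.93 and 6.87 with OA, against 6.80, 6.27, 6.54 and 6.36 with PA, a difference of 0.45 ± 0.11 (adjusted p = 0.0393). OA was above PA on every array for both, as for 7.84% of all genes. The calls were near the threshold. That of Mki67 ended when any of 12 of the 19 arrays was left out, and that of Top2a with any of 8. Without PA replicates 2 and 4 the differences were 0.23 and 0.28, and with Top2a's probe sets averaged its difference was 0.19.

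The wider replication machinery was read from 8 lists that hold 114 genes, of which 104 were measured. Of these 104, 0 were called with PA, 0 with PMA, 0 with SA and 1 with OA against control, where 0%, 0.266%, 0.165% and 0.861% of all genes were. The median difference from control was -0.02 with PA, 0.07 with PMA, 0.02 with SA and 0.05 with OA, beside 0.03, 0.06, 0.02 and 0.02 over all genes. OA against PA gave 1 call, beside 1.92% of all genes called, and the other 5 pairs of acids and monounsaturated against saturated gave 0. The median for PMA against PA was 0.09, beside 0.03 over all genes.

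Topbp1, a scaffold that helps load the helicase cofactors and switches on the ATR checkpoint, rose with OA. It had 7.56, 7.77 and 7.67 with OA, against 7.45, 7.43, 7.37 and 7.25 in control cultures, with no overlap, as for 9.72% of genes, and the difference was 0.29 ± 0.07 (limma adjusted p = 0.041). The same gene differed from control by 0.25 with PMA (adjusted p = 0.0791), 0.23 with SA (adjusted p = 0.171) and 0.12 with PA (adjusted p = 0.342). Its OA call ended when any of 11 of the 19 arrays was left out, and the adjusted p ran from 0.00542 to 0.168 over all alternatives.

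Chek1, the checkpoint kinase that answers to RPA-coated DNA through ATR, rose with OA relative to PA. It had 5.56, 5.73 and 5.47 with OA, against 5.42, 5.07, 5.31 and 5.16 with PA, again with no overlap, as for 7.84% of genes, and the difference was 0.35 ± 0.09 (limma adjusted p = 0.0499). The call ended with any of 15 of the 19 arrays left out, and without PA replicates 2 and 4 the difference was 0.22. The adjusted p ran from 0.0158 to 0.535.

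In the other lists no gene passed, and those with the widest differences are given as values. Among 12 genes of the replicative polymerases, Pole2, a subunit of the leading strand polymerase, differed by -0.29 between PA and control (limma adjusted p = 0.253) and by 0.41 between PMA and PA (adjusted p = 0.0729), or by -0.08 and 0.19 without PA replicates 2 and 4. Pold4 differed from control by -0.20 with SA and -0.21 with OA (adjusted p = 0.366 and 0.262). Prim1, the primase, differed from control by 0.14 with OA (adjusted p = 0.662). It read 4.47 to 5.06, below the array medians of 5.23 to 5.43. Among 12 licensing genes, Mcm9 differed by 0.28 between PMA and PA (adjusted p = 0.0768), or by 0.10 without PA replicates 2 and 4. Cdc6, which loads the MCM ring, was at -0.20 between SA and PA (adjusted p = 0.261). Gmnn, which blocks reloading of the ring, was at -0.16 between SA and PA (adjusted p = 0.309). Its values of 3.91 to 4.37 were also below the array median on every array.

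Among 14 genes of clamp loading and lagging strand synthesis, Rfc3, a clamp loader subunit, differed by 0.20 between PMA and PA (limma adjusted p = 0.175; 0.12 without PA replicates 2 and 4), Fen1, the flap nuclease, by -0.18 between SA and control (adjusted p = 0.438) and Dna2 by 0.18 between PMA and control (adjusted p = 0.224). Of 8 nucleotide supply genes, Rrm2, a ribonucleotide reductase subunit, was 0.22 above control with PMA (adjusted p = 0.134). Rrm1, its partner, was 0.23 above PA with OA (adjusted p = 0.104), or 0.11 without PA replicates 2 and 4. Rrm2b differed by -0.18 between SA and PA (adjusted p = 0.232). Without PA replicates 2 and 4 the Rrm2b difference was larger, -0.25 (adjusted p = 0.678). Among 8 genes of replication chromatin, Nasp, a histone chaperone, differed by 0.22 between PMA and PA (adjusted p = 0.125), Asf1a by 0.21 between OA and PA (adjusted p = 0.248), and Dnmt1, the maintenance DNA methyltransferase, by 0.18 between OA and control (adjusted p = 0.17). The differences of Nasp and Asf1a were 0.09 and 0.03 without PA replicates 2 and 4. Dna2, at 4.63 to 5.16, and Nasp, at 4.53 to 5.07, were below the array median on every array. Of 25 genes of G1/S control, Ccna2, cyclin A2, differed by 0.34, Rb1 by 0.33 and E2f5 by 0.31 between OA and PA (adjusted p = 0.05, 0.0654 and 0.0923). These were 0.30, 0.14 and 0.17 without PA replicates 2 and 4.

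The 5 genes whose levels ran most like those of Rpa3 over the 19 arrays were Ccdc58 (r = 0.83), Cnih4 (0.81), Med21 (0.80), Tomm20 (0.79) and Sap30 (0.78). On deviations from group means the correlations were 0.58, 0.50, 0.46, 0.41 and 0.53. Ccdc58, for example, averaged 6.95 ± 0.07 with PA, 6.88 ± 0.16 with PMA, 6.92 ± 0.02 with SA (SD, n = 4 each) and 6.96 ± 0.13 with OA (SD, n = 3), against 7.16 ± 0.09 in control cells (SD, n = 4). None of the other 9 replication genes was among them, as would hold for most sets of 9 among 18820 genes. Sap30, a subunit of the Sin3 histone deacetylase complex, averaged 7.09 ± 0.13 with PA, 6.77 ± 0.15 with PMA, 6.75 ± 0.12 with SA (SD, n = 4 each) and 6.75 ± 0.07 with OA (SD, n = 3), against 7.27 ± 0.17 in control cells (SD, n = 4).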

How the data were processed

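Total RNA of 19 cultures (100 ng each) was labelled and hybridised to Affymetrix Mouse Gene 1.1 ST arrays. The deposited values are log2 expression per probe set, obtained by the authors through affy 1.34.0 (RMA) under R 2.15.0, per the submitters' processing notes; how many arrays were normalized together is not given in the sources used here. Of 35556 probe sets, 21218 carry 1 gene symbol in the platform annotation, 1881 several and 12457 none; only the first were named, giving 18820 symbols, each by its brightest probe set. Arrays carry no read depth, so their number limits the precision.

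Groups came from the sample labels. The palmitoleic acid arrays are titled PMO there, and were taken as the PMA group by their treatment label. limma 3.58.1 (R 4.3.3; lmFit and eBayes, two-sided) was fitted to all 19 arrays with 1 mean per group and 11 contrasts. p-values were Benjamini-Hochberg adjusted over all genes of a contrast, and a gene was called at an adjusted p under 0.05. The script was tested on simulated data. Named genes are the 10 replication genes, both Rpa3 probe sets, the called genes of each list (otherwise up to 3 with the largest differences; marker lists without a call are given by their levels), the 5 genes most correlated with Rpa3, and its neighbours. The genes and lists were chosen with earlier results of these data known. Same-numbered arrays did not deviate together, so the numbers were not used as pairs.

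Alternatives were array weights, cyclic loess, averaging probe sets, testing every probe set, a filter on dim genes, a trended spread, only the arrays compared, a replicate block, and leaving out arrays singly or in pairs that stand apart. Promoters came from RefSeq (GRCm38.p6); protein sequences were not used here.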

Additional observations from a re-analysis of the deposited data

Results flagged for a closer look

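In 3 of the 44 groups of 4 arrays looked at for the replication genes, 1 array lay apart from the other 3 by Dixon's criterion, which chance gives in about 1 of 20 groups. SA replicate 1 had 7.72 for Rpa1, against 7.65 to 7.66 on the other SA arrays. The same array had 6.23 for Mcm6, against 6.00 to 6.02 on the others. Control replicate 1 had 5.97 for Mcm3, against 6.03 to 6.04 on the other control arrays. No contrast of Rpa1, Mcm3 or Mcm6 gained a call when either of these arrays was left out.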

How the results depend on the processing

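Each result was recomputed under 29 alternatives. The count of replication genes called was 0 in 9 of the 11 contrasts under every one of them. For PMA against PA it was 0 to 1 over the arrays left out in turn, with 1 without PA replicate 1 and 1 without PA replicate 3. For OA against PA it was 0 to 2, with 2 without PA replicate 1 and 1 without PA replicate 3. All genes called were 447 and 638 for PMA against PA under these settings, against 181 with all arrays, and 1541 and 638 for OA against PA, against 362. Rpa3, by its brighter probe set or the average of both, stayed below control with every acid under all alternatives, at -0.39 to -0.16 with PA, -0.60 to -0.35 with PMA, -0.43 to -0.26 with SA and -0.46 to -0.32 with OA; the smallest values came from averaging its 2 probe sets. The dimmer probe set alone was 0.02 above control with PA. By the brighter probe set, the Rpa3 differences between acids changed sign in places. Over the arrays left out in turn, OA minus SA ran from -0.07 to 0.04 (0.02 without SA replicate 2, 0.04 without OA replicate 3). SA minus PA ran from -0.10 to 0.01 (0.00 without PA replicate 3, 0.01 without SA replicate 4). Without PA replicates 2 and 4 together, SA minus PA was -0.17 and OA minus PA -0.19 by that probe set. The calls of Topbp1, Chek1, Mki67 and Top2a ended under 14, 22, 15 and 14 of the 29 alternatives, which for these genes, like the values of other list genes without PA replicates 2 and 4, were chosen after seeing the data; the cause was not tested. Of 36 pairs of same-numbered arrays, 6 deviated together at a correlation over 0.1 (range -0.43 to 0.40), and 4 of 19 arrays correlated best with an array of their own number. With the replicate number as a block, 0 replication genes were called in every contrast, and Rpa3 differed from control by -0.55 with PMA, as without it.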
